A study of Mus musculus with 6 samples.

Results

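The genes described here encode the machinery that burns fatty acids in mitochondria and peroxisomes, together with the peroxins that build peroxisomes and the PPAR nuclear receptors that control many of these genes. They were chosen by name, with earlier results of these data known, as 43 gene symbols. These were looked up in a count table of 25189 symbols, and 42 of them had a row. Pparg was not analysed here. The members fall into 21 mitochondrial oxidation genes, 7 peroxisomal oxidation genes, 12 peroxins and 2 PPAR receptor genes.

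The libraries came from samples labelled as kidney of C57BL/6 mice, male and wild type, on day 2 of kidney ischaemia and reperfusion (I/R), in which renal blood flow is stopped and then restored. Of the 6 libraries, 3 were from I/R with chemerin-9 (C9), which is a peptide agonist of the chemerin receptor CMKLR1 that matches the carboxyl terminus of chemerin, and 3 were from I/R without it. Both groups are labelled with the injury, and no uninjured group was analysed here. The study's title names ferroptosis, a death by lipid peroxidation, and the comparison here describes the genes that consume fatty acids.

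The chemerin-9 libraries held 11217252, 13274436 and 14004529 counts, and the I/R libraries 13069464, 13817752 and 16938301 counts. The median member had 413 to 509 counts per library with chemerin-9 and 439 to 583 counts in I/R. The third I/R library stood apart: counts of the chemerin-9 libraries differed pairwise by 1.90 to 2.17 times the variance of counting noise, and those of the first and second I/R libraries by 1.80 times, while the third differed from these by 5.61 and 5.14 times. The share of counts from the ribosomal RNA gene Rn18s-rs5 was 0.261% to 0.306% with chemerin-9 and 0.381% to 0.517% in I/R, and the share from mitochondrially encoded genes was 2.56% to 2.64% with chemerin-9 and 2.81% to 2.94% in I/R. Their part in the results was not tested. Nothing in the labels says that libraries are from separate mice, and the p-values therefore reflect library-to-library spread that may be technical. The labels give a different batch value to each of the libraries, and batch and treatment cannot be told apart. These values are consecutive and may not mark real batches. In the table the treated columns carry letters taken here to stand for I/R plus C9, and every statement on chemerin-9 rests on that reading.

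Marker genes were set against the labelled tissue. Of 15 proximal tubule markers, 6 had a row, and their summed level was 22.6 to 28.1 CPM (counts scaled to the TMM-adjusted library size) with chemerin-9 and 25.5 to 27.3 CPM in I/R. Among them Lrp2, the endocytic receptor megalin, averaged 3.37 ± 0.747 CPM with chemerin-9 and 3.19 ± 0.531 CPM in I/R (SD, n = 3 each). Loop and distal nephron markers (2 of 8 with a row) summed to 3.54 to 3.85 CPM with chemerin-9 and 2.73 to 3.60 CPM in I/R, and collecting duct markers (3 of 7) to 0.663 to 0.909 CPM with chemerin-9 and 0.223 to 0.789 CPM in I/R. Fibroblast and matrix markers (7 of 8) summed to 2130 to 2211 CPM with chemerin-9 and 2682 to 2805 CPM in I/R, and podocyte markers (3 of 5) to 26.4 to 28.5 CPM with chemerin-9 and 17.1 to 18.2 CPM in I/R. Endothelial markers (4 of 6) summed to 1.75 to 2.65 CPM with chemerin-9 and 1.04 to 1.21 CPM in I/R, and leukocyte markers (4 of 8) to 4.53 to 6.78 CPM with chemerin-9 and 4.61 to 6.09 CPM in I/R. Dividing-cell markers (6 of 6) summed to 3649 to 3755 CPM with chemerin-9 and 3693 to 3839 CPM in I/R. The median of the 6 proximal tubule markers was 1.48 to 2.13 CPM with chemerin-9 and 2.12 to 2.49 CPM in I/R. Their summed level thus came mostly from the higher markers, and Lrp2 held only a part of it. The tubule markers with a row were thus mostly near the floor while fibroblast and dividing-cell genes were abundant. This goes against the label of whole kidney, and the samples are called kidney here only as labelled. The summed levels of the groups did not overlap in the fibroblast, podocyte and endothelial lists. In the fibroblast list Vim averaged 853 CPM with chemerin-9 and 1366 CPM in I/R. Col1a1 of the same list averaged 800 CPM with chemerin-9 and 771 CPM in I/R, with overlap. None of the endothelial markers had enough counts to be tested. Of all tested genes taken singly, 58.5% did not overlap. The part of cell makeup in the results below was not tested. In bulk samples fewer cells of a type and less RNA per cell cannot be told apart.

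Fatty acids are activated to acyl-CoA, carried into mitochondria by the carnitine shuttle and shortened there by repeated rounds of dehydrogenation, hydration, a second dehydrogenation and thiolysis, with electrons leaving through the electron transfer flavoprotein. Peroxisomes take the substrates that mitochondria handle poorly, such as very-long-chain and branched fatty acids, and rely on peroxins to make their membrane and to import their enzymes. Proximal tubule cells are known to depend on fatty acid oxidation for energy, and PPARα, encoded by Ppara, is known to drive many of these genes in kidney and liver.

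The members did not shift as a block between the groups. Of the 41 members tested, 22 passed an adjusted p of 0.05 in edgeR's quasi-likelihood test adjusted over all 14184 tested genes, 10 of them higher and 12 lower with chemerin-9. Over all tested genes 51.7% were called, 25.6% higher and 26.1% lower, so the members' 53.7% lies near the background. The median log2 fold change of the members was −0.022, beside −0.0037 over all tested genes. In size, 4 of 41 members (9.76%) changed at least 1.5-fold, beside 19.4% of all tested genes. The median absolute log2 fold change was 0.19 in the members and 0.27 over all tested genes. Among called genes alone it was 0.36 in the members and 0.41 over all. The median tested gene had fewer counts than the median member, at 295 to 368 per library with chemerin-9 and 333 to 434 in I/R. These sizes were not matched for count level, and their difference was not tested. The libraries of the groups did not overlap for 26 tested members (63.4%), against 58.5% of all tested genes.

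**Figure D1:**
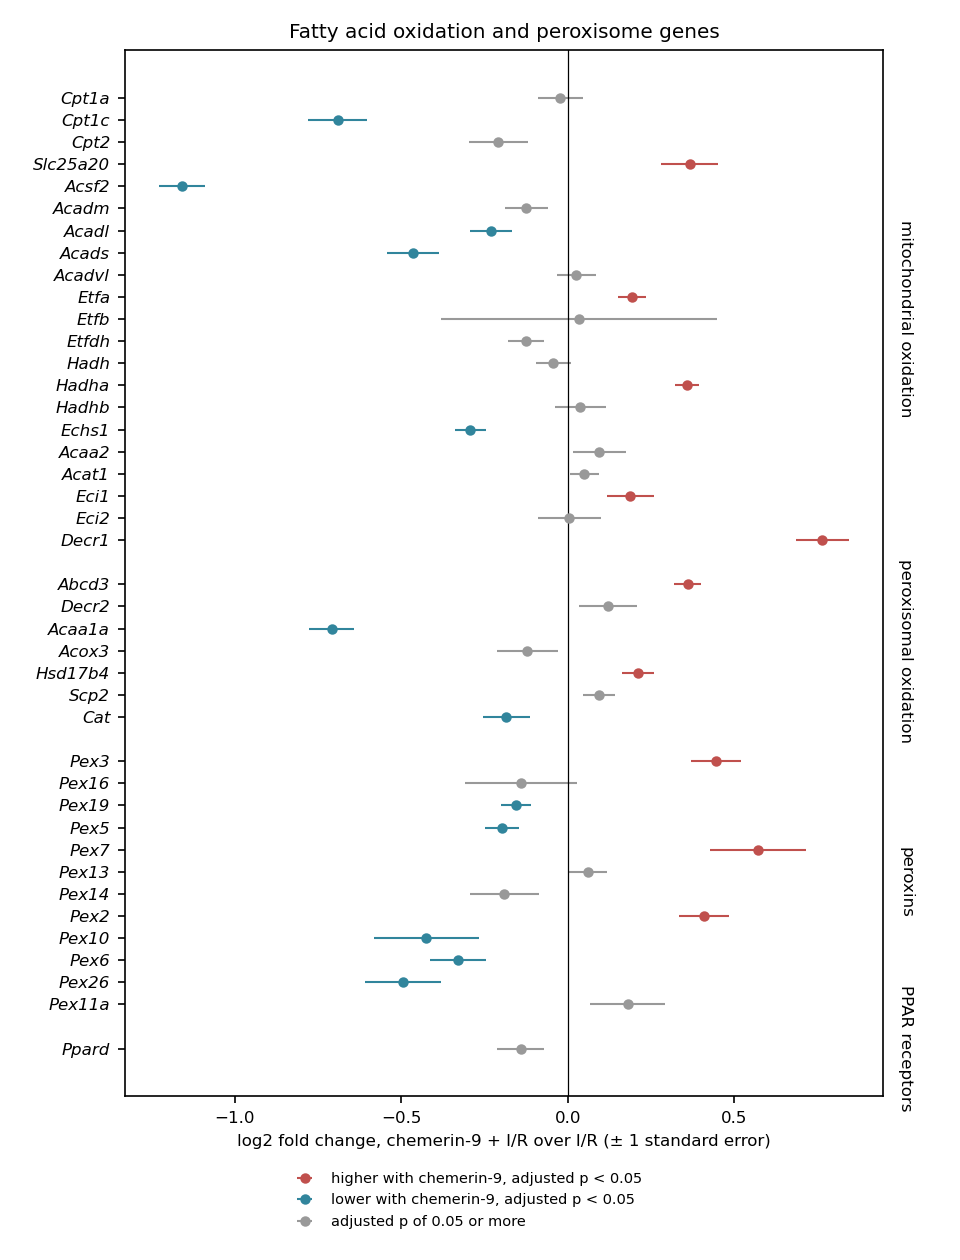
Log2 fold change of each tested member, I/R with chemerin-9 over I/R, on the horizontal axis, with bars of 1 standard error from edgeR and the members ordered by class and role, in red or blue where higher or lower at an adjusted p under 0.05 and in grey otherwise. The points spread to both sides of 0 in every large group, with Acsf2 (−1.16) and Decr1 (0.76) at the ends.

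Of the 21 mitochondrial genes, 10 were called (47.6%), 5 higher and 5 lower with chemerin-9, with a median log2 fold change of 0.0043. Of the 7 peroxisomal genes, 4 were called (57.1%), 2 higher and 2 lower, with a median of 0.095. Of the 12 peroxins, 8 were called (66.7%), 3 higher and 5 lower, with a median of −0.15. Beside these shares, 51.7% of all tested genes were called, and the differences between the shares were not tested. The order of the classes also depended on the setting. With the replicate block and the trend on GC content and length removed, 6 of 12 peroxins were called. In that setting 11 of 21 mitochondrial genes and 4 of 7 peroxisomal genes were called. The medians are small and moved with the libraries: the mitochondrial median lay between −0.075 and 0.0054 when each library was left out, and the peroxin median was −0.095 without the first chemerin-9 library.

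**Figure D2:**
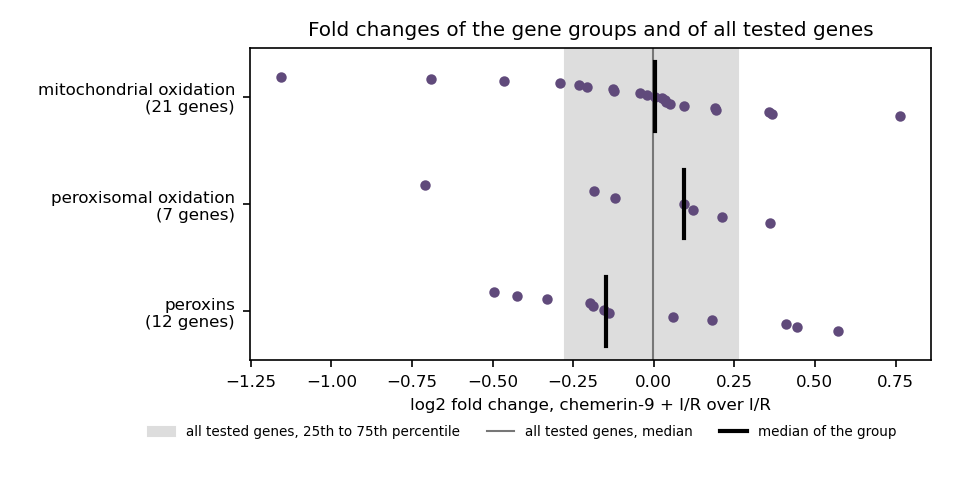
Log2 fold changes (I/R with chemerin-9 over I/R) of the tested members by class beside the median and the quartiles of all tested genes. The medians of the mitochondrial genes (0.0043), the peroxisomal genes (0.095) and the peroxins (−0.15) all lie within the quartiles of all genes, −0.28 and 0.26.

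Per kilobase of the principal transcript, the highest member was Etfa, the alpha subunit of the electron transfer flavoprotein, at 96.7 CPM per kb with chemerin-9 and 84.5 CPM per kb in I/R. The order below Etfa differed between the groups. With chemerin-9 it ran Hadha (53.7 CPM per kb), Echs1 (47.8) and Abcd3 (45.3), and in I/R it ran Echs1 (58.5), Pex19 (43.8) and Hadha (41.9), with Abcd3 at 35.3. The median level was 14.1 CPM per kb over the members with chemerin-9 and 13.9 in I/R, near that of the 11413 tested genes with a principal transcript (12.3 with chemerin-9 and 12.5 in I/R). Peroxins were low, with a median of 6.79 CPM per kb with chemerin-9 and 7.71 in I/R. Peroxisomal oxidation genes had a median of 14.6 with chemerin-9 and 23.8 in I/R, in both groups the value of the thiolase Acaa1a, and mitochondrial genes 19.9 with chemerin-9 and 21.6 in I/R.

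**Figure D3:**
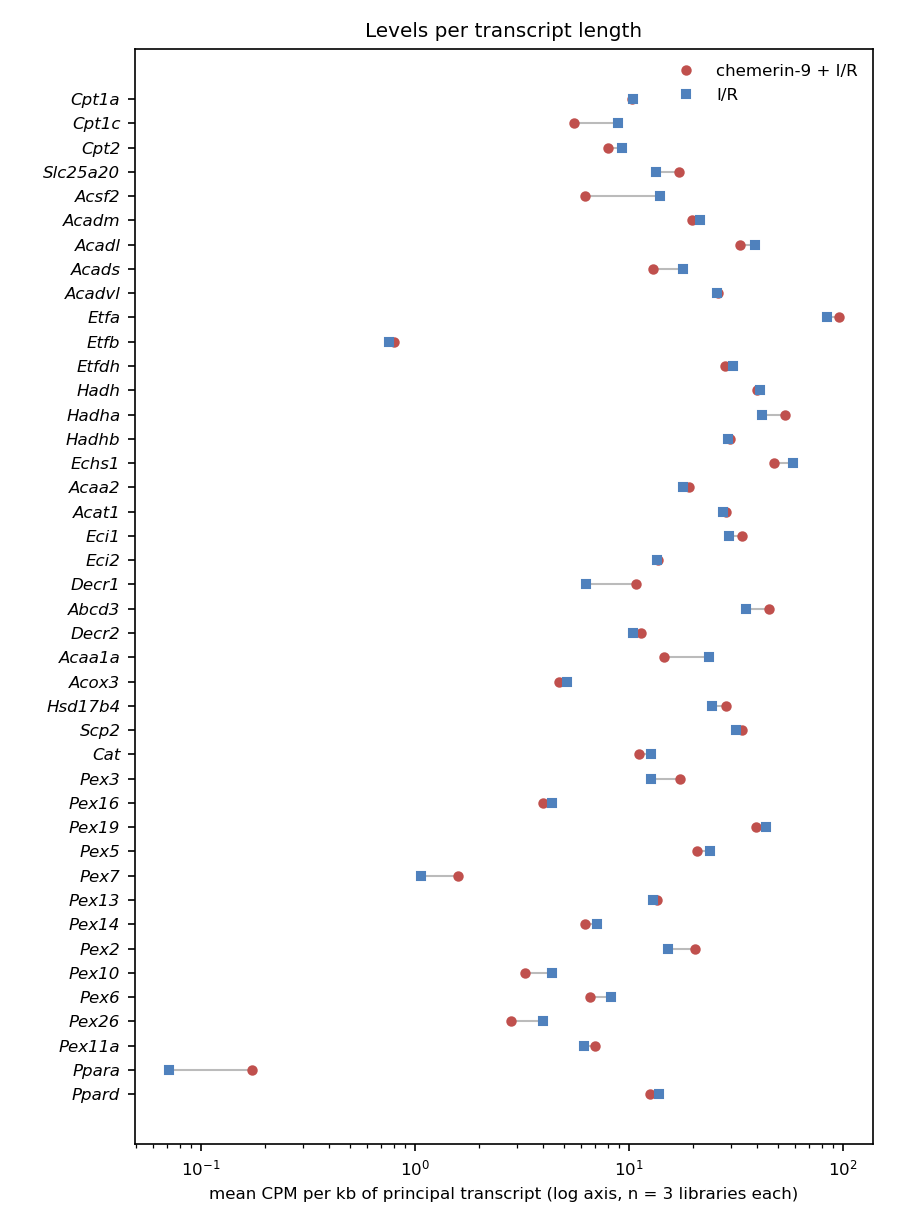
Mean level of each member in CPM per kb of the principal transcript on a log axis, in I/R with chemerin-9 and in I/R. Etfa is the highest in both groups (96.7 with chemerin-9 and 84.5 in I/R) and Ppara the lowest (0.173 with chemerin-9 and 0.0709 in I/R).

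The only member listed for activation gave the largest fall among the members. Acsf2, an acyl-CoA synthetase of mitochondria that activates medium-chain fatty acids and is often named among ferroptosis genes, lies at chr11:94557102-94601871 (GRCm38). It stood at 19.3, 20.3 and 19.8 CPM in the 3 chemerin-9 libraries, against 43.6, 43.4 and 45.6 CPM in the I/R libraries. The groups lay far apart and each was tight, at 19.8 ± 0.540 CPM with chemerin-9 and 44.2 ± 1.20 CPM in I/R (SD, n = 3 each). Acsf2 thus fell by 55.2%, a log2 fold change of −1.16 (SE 0.069, edgeR adjusted p = 4.7e-09). A pseudogene-like copy, Gm5540, shares 99.0% of its bases over its whole length, and reads may be split between them. Gm5540 was rarer and lower too, at 3.49, 2.51 and 4.06 CPM with chemerin-9 against 5.17, 7.88 and 5.83 CPM in I/R. Its counts may hold reads of Acsf2, and the part of the copy in the fall of Acsf2 was not tested.

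The bases before the start of Acsf2 are shown because this gene changed most. The window comes from RefSeq promoters of GRCm38.p6, trimmed to the bases outside exons, chr11:94601872-94602036 on the minus strand, and capitals mark GC boxes (GGGCGG on either strand). It holds 5 GC boxes and no CCAAT box.
Acsf2: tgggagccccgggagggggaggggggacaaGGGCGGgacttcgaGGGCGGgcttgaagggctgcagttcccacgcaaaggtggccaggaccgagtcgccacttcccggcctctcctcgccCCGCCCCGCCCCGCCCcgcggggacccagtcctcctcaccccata

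Of the 4 genes listed under the carnitine shuttle, 1 was called higher and 1, Cpt1c, lower with chemerin-9. Cpt1a, the carnitine palmitoyltransferase that limits entry of long-chain fatty acids into mitochondria, had 44.97, 46.3 and 42.9 CPM with chemerin-9, against 49.3, 44.4 and 42.7 CPM in I/R. The groups overlapped, and its log2 fold change of −0.022 (SE 0.067) did not pass (edgeR adjusted p = 0.81). Cpt1c, a family member best known from the endoplasmic reticulum of neurons and with little catalytic activity, lies at chr7:44959372-44974851. It shares 366 exon bases with 6530437J22Rik on the opposite strand, a gene with 5 counts over all 6 libraries. Cpt1c had 15.3, 15.3 and 15.8 CPM with chemerin-9, against 25.1, 23.0 and 26.6 CPM in I/R. Without overlap between the groups it fell by 38.0% (log2 fold change −0.69, SE 0.089, edgeR adjusted p = 1.3e-05).

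Slc25a20, the carrier that exchanges acylcarnitine for carnitine across the inner membrane (chr9:108662088-108684641), had 29.8, 32.7 and 29.9 CPM with chemerin-9, against 21.3, 25.9 and 24.5 CPM in I/R. Each chemerin-9 library lay above each I/R library, and the gene rose by 28.9% (log2 fold change 0.37, SE 0.085, edgeR adjusted p = 0.0022). Cpt2, which returns the acyl group to CoA inside the mitochondrion, averaged 19.0 ± 1.30 CPM with chemerin-9 and 22.0 ± 0.902 CPM in I/R and did not pass (edgeR adjusted p = 0.060).

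Of the 4 acyl-CoA dehydrogenases, which carry out the first step of each round on chains of different length, 2 fell. The short-chain enzyme Acads (chr5:115110299-115119346) had 23.9, 26.4 and 22.8 CPM with chemerin-9, against 34.4, 31.9 and 34.5 CPM in I/R. The groups were apart, with a log2 fold change of −0.46 (SE 0.078, edgeR adjusted p = 0.00015). The long-chain enzyme Acadl fell less, to 63.6 ± 5.49 CPM with chemerin-9 against 74.4 ± 3.21 CPM in I/R (log2 fold change −0.23, edgeR adjusted p = 0.0064). The medium-chain enzyme Acadm, at 40.7 ± 2.43 CPM with chemerin-9 and 44.3 ± 1.20 CPM in I/R, did not pass (edgeR adjusted p = 0.12). The very-long-chain enzyme Acadvl, at 56.96 ± 3.22 CPM with chemerin-9 and 56.1 ± 2.64 CPM in I/R, did not pass either (edgeR adjusted p = 0.74). Acadvl shares 976 exon bases with Dvl2 on the opposite strand. Its counts are uncertain because the sources used here do not give the strand setting of the counting. Opposite-strand exon overlaps also touch Acox3 (700 bases), Pex14 (630), Cpt1c (366), Pex3 (249), Eci2 (189), Hadha (75) and Pex13 (2).

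Electrons from the dehydrogenases pass to the electron transfer flavoprotein. Its alpha subunit Etfa had 132, 138 and 134 CPM with chemerin-9, against 117, 114 and 122 CPM in I/R. The groups did not overlap, and the rise was small in size (log2 fold change 0.19, SE 0.042, edgeR adjusted p = 0.0013). A copy, Gm15289, shares 95.1% of its bases with Etfa and was not analysed here. Its partner Etfb, the beta subunit, was listed at 0.717 ± 0.0793 CPM with chemerin-9 and 0.680 ± 0.253 CPM in I/R. Of its exon bases, 617 also belong to Gm45233 on the same strand. The level of Etfb is therefore uncertain and cannot be set against that of Etfa. Etfdh, which hands the electrons to ubiquinone, averaged 66.8 ± 0.957 CPM with chemerin-9 and 72.9 ± 4.57 CPM in I/R and did not pass (edgeR adjusted p = 0.064). It passed as lower in 3 of 13 alternatives, which were without the third I/R library and, with or without the replicate block, with the trend on GC content and length removed (adjusted p = 0.0055 without the block). Its adjusted p ran from 0.0050 to 0.27 over the alternatives.

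The mitochondrial trifunctional protein, which carries out the later steps on long chains, is built from the products of Hadha and Hadhb. Hadha (chr5:30118304-30155162, minus strand) had 213, 218 and 216 CPM with chemerin-9, against 170.1, 170.2 and 165 CPM in I/R. It rose by 28.2% with no overlap (log2 fold change 0.36, SE 0.036, edgeR adjusted p = 9.0e-07). Hadhb (chr5:30155248-30184593, plus strand) had 61.2, 59.4 and 63.4 CPM with chemerin-9, against 62.9, 65.6 and 51.4 CPM in I/R. The groups overlapped for Hadhb, with the third I/R library the lowest, and its log2 fold change of 0.037 (SE 0.076) did not pass (edgeR adjusted p = 0.71), being −0.070 without that library.

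Both subunit genes were then set against each other within each library, a ratio chosen after the values were seen. There were 3.49, 3.67 and 3.41 Hadha counts per Hadhb count with chemerin-9, against 2.70, 2.59 and 3.203 in I/R. The ratio was above every I/R library in every chemerin-9 library, at 3.52 ± 0.136 with chemerin-9 and 2.83 ± 0.325 in I/R (SD, n = 3 each). A two-sided exact permutation test gave p = 0.10, the smallest that 3 against 3 libraries allow. As the ratio was picked from these same values, this p is no support for a difference.

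Hadha and Hadhb stand head to head, and the stretch between them is shown because Hadha passed the test and Hadhb, across the same stretch, did not. Their RefSeq starts lie 272 bases apart on opposite strands. The 85 bases between the exons of both genes, chr5:30155163-30155247 of GRCm38.p6 on the plus strand, hold 2 GC boxes, in capitals, and no CCAAT box.
Hadha and Hadhb: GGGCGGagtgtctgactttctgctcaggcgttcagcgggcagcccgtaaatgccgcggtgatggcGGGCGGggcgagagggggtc

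**Figure D4:**
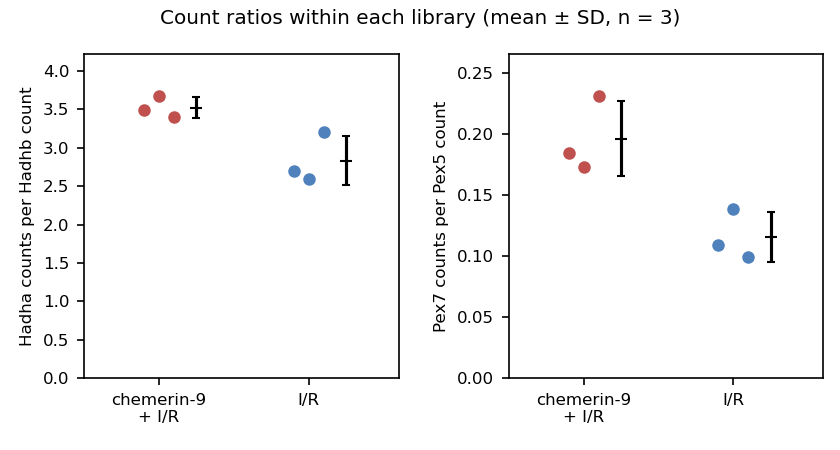
Ratio of counts of Hadha to Hadhb and of Pex7 to Pex5 in each library, with the mean and SD of I/R with chemerin-9 and of I/R. Each chemerin-9 library lies above each I/R library in both ratios, with means of 3.52 with chemerin-9 and 2.83 in I/R for Hadha to Hadhb, and 0.196 with chemerin-9 and 0.115 in I/R for Pex7 to Pex5.

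Echs1, the hydratase for short chains, fell, with 73.0, 72.1 and 77.9 CPM with chemerin-9 against 90.0, 93.0 and 90.3 CPM in I/R (log2 fold change −0.29, SE 0.048, edgeR adjusted p = 0.00012). The groups did not overlap. Hadh, the short-chain hydroxyacyl-CoA dehydrogenase, and the thiolases Acaa2 and Acat1 did not pass, with log2 fold changes of −0.043, 0.095 and 0.049 and edgeR adjusted p of 0.51, 0.35 and 0.37. Unsaturated fatty acids need auxiliary enzymes, and of these Decr1, the 2,4-dienoyl-CoA reductase of mitochondria, gave the largest rise among the members. At chr4:15917240-15945507, Decr1 had 31.1, 31.7 and 33.1 CPM with chemerin-9, against 18.6, 17.8 and 19.97 CPM in I/R. Without overlap it rose by 69.9% (log2 fold change 0.76, SE 0.079, edgeR adjusted p = 1.4e-06). The isomerase Eci1 had 38.3 ± 2.55 CPM with chemerin-9 and 33.6 ± 1.88 CPM in I/R (log2 fold change 0.19, edgeR adjusted p = 0.039), a call lost in 7 of the 13 alternative settings, where its adjusted p ran from 0.0020 to 0.19. Eci2, an isomerase found in both organelles, had a log2 fold change of 0.0043 and did not pass (edgeR adjusted p = 0.98), and near-identical copies leave its counts uncertain.

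**Figure D5:**
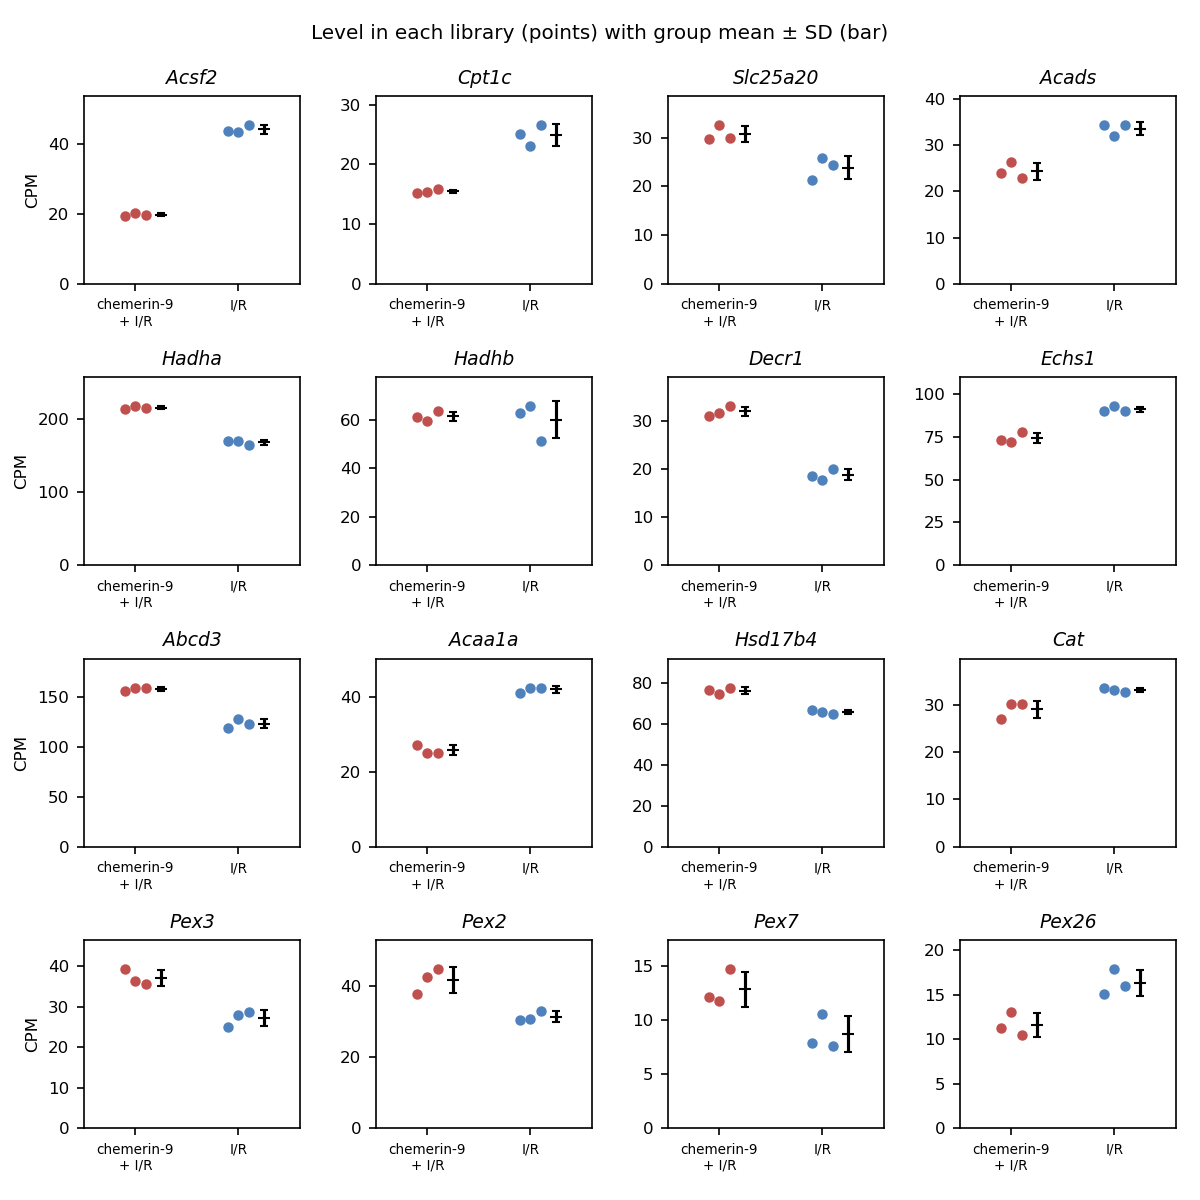
Level in CPM in each of the 6 libraries for 16 members with values per library in the text, I/R with chemerin-9 left of I/R, with the group mean and SD as bars. The groups are separate for Acsf2 (19.3 to 20.3 CPM with chemerin-9, 43.4 to 45.6 CPM in I/R) and overlap for Hadhb (59.4 to 63.4 CPM with chemerin-9, 51.4 to 65.6 CPM in I/R).

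In peroxisomal oxidation the transporter rose and the thiolase fell. Abcd3, a membrane transporter that brings long branched acyl-CoAs and bile acid precursors into the peroxisome (chr3:121758774-121815302), had 156, 159.6 and 159 CPM with chemerin-9, against 119, 128 and 123 CPM in I/R. The libraries were apart by more than their spread, a rise of 28.3% (log2 fold change 0.36, SE 0.040, edgeR adjusted p = 3.0e-06). Acaa1a, the thiolase that ends each round (chr9:119339676-119350299), had 27.3, 24.9 and 25.1 CPM with chemerin-9, against 41.0, 42.5 and 42.5 CPM in I/R. It fell by 38.8% with no overlap (log2 fold change −0.71, SE 0.067, edgeR adjusted p = 6.1e-07). Its paralog Acaa1b is 98.7% identical over the aligned bases, but held 33 counts over all 6 libraries.

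Hsd17b4, the bifunctional enzyme of the middle steps, had 76.7, 74.6 and 77.9 CPM with chemerin-9, against 67.0, 66.0 and 65.1 CPM in I/R. It rose by 15.7% with no overlap (log2 fold change 0.21, SE 0.047, edgeR adjusted p = 0.0017). Cat, catalase, which destroys the hydrogen peroxide that acyl-CoA oxidases make, was at 27.1, 30.3 and 30.1 CPM with chemerin-9, against 33.7, 33.1 and 32.8 CPM in I/R. Its fall was small (log2 fold change −0.18, SE 0.071, edgeR adjusted p = 0.041), and the call was lost in 7 of 13 alternative settings, with an adjusted p of 0.024 to 0.14. Acox3, an oxidase for branched chains, Decr2, the peroxisomal dienoyl-CoA reductase, and Scp2, a sterol carrier with thiolase activity, did not pass, at log2 fold changes of −0.12, 0.12 and 0.095 and edgeR adjusted p of 0.29, 0.27 and 0.11. Scp2 has near-identical copies, so its counts are uncertain.

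The window before the RefSeq start of Acaa1a is shown as that of the peroxisomal gene with the largest fall. That start, at base 119341294 of chromosome 9, lies inside the longer span given above, so the window, chr9:119341044-119341293 of GRCm38.p6 on the plus strand, is within the gene as the table bounds it. Capitals mark 3 GC boxes and 3 CCAAT boxes, on either strand.
Acaa1a: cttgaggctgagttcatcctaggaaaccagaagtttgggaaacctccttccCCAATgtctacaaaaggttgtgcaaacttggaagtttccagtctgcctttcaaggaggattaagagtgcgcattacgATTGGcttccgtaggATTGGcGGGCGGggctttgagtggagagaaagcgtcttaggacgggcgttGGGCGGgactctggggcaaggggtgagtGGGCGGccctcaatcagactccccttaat

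Peroxins that insert the peroxisomal membrane differed. Pex3, the membrane anchor to which Pex19 docks, had 39.3, 36.3 and 35.6 CPM with chemerin-9, against 24.97, 27.9 and 28.6 CPM in I/R. It rose by 36.1% with no overlap (log2 fold change 0.44, SE 0.075, edgeR adjusted p = 0.00016), with 249 exon bases shared with Adat2 on the opposite strand. Pex19, the cytosolic chaperone of peroxisomal membrane proteins, fell slightly, at 75.5 ± 1.55 CPM with chemerin-9 and 84.0 ± 0.885 CPM in I/R (log2 fold change −0.15, SE 0.045, edgeR adjusted p = 0.0098). Pex16, which also serves membrane assembly, did not pass (log2 fold change −0.14, edgeR adjusted p = 0.51).

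The import receptors for the enzymes moved apart. Pex7, which carries proteins with the amino-terminal signal PTS2, such as the thiolase Acaa1a, had 12.1, 11.8 and 14.8 CPM with chemerin-9, against 7.91, 10.6 and 7.65 CPM in I/R. The groups did not overlap, although they came within little of each other, and Pex7 rose by 48.6% (log2 fold change 0.57, SE 0.14, edgeR adjusted p = 0.0040). Pex5, the receptor for the carboxyl-terminal signal PTS1 and the partner of Pex7 in mammals, had 65.7, 68.2 and 63.9 CPM with chemerin-9, against 72.7, 76.7 and 77.3 CPM in I/R. It fell by 12.8% (log2 fold change −0.20, SE 0.050, edgeR adjusted p = 0.0041). Per Pex5 count there were 0.184, 0.173 and 0.231 Pex7 counts with chemerin-9, against 0.109, 0.139 and 0.0989 in I/R, a ratio also chosen after the values were seen. These did not overlap, at 0.196 ± 0.0307 with chemerin-9 and 0.115 ± 0.0206 in I/R (SD, n = 3 each). With Pex7 higher and Pex5 lower in every chemerin-9 library than in every I/R library, the ratio could not overlap. The two-sided exact permutation p, again the smallest possible at 0.10, was thus fixed in advance and adds nothing.

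The Pex7 upstream window is shown as that of the peroxin with the largest rise and as a contrast to the GC-rich windows above. It lies at chr10:19907690-19907924 of GRCm38.p6 on the minus strand (RefSeq) and holds no GC box and 2 CCAAT boxes, in capitals, on either strand.
Pex7: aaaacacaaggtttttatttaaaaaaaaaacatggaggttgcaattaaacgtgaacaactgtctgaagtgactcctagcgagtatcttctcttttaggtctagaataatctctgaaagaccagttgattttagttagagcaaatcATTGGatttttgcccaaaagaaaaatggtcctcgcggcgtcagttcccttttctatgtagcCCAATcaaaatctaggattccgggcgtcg

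The docking proteins Pex13 and Pex14 did not pass, at log2 fold changes of 0.061 and −0.19 and edgeR adjusted p of 0.39 and 0.14. The RING ubiquitin ligases that recycle Pex5 moved in opposite directions. Pex2 had 37.8, 42.5 and 44.8 CPM with chemerin-9, against 30.5, 30.7 and 33.1 CPM in I/R, a rise of 32.8% without overlap (log2 fold change 0.41, SE 0.074, edgeR adjusted p = 0.00030). Pex10, of low level, had 5.32, 6.56 and 4.69 CPM with chemerin-9, against 7.59, 6.91 and 7.71 CPM in I/R (log2 fold change −0.42, SE 0.16, edgeR adjusted p = 0.035). The fall of Pex10 was not called in 7 of 13 alternative settings, with an adjusted p of 0.015 to 0.15.

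For the export of the receptors from the membrane, both members fell. Pex26, the anchor of the export motor, had 11.2, 13.04 and 10.5 CPM with chemerin-9, against 15.1, 17.9 and 16.02 CPM in I/R, a fall of 29.1% in the group mean. Its log2 fold change was −0.50 (SE 0.11, edgeR adjusted p = 0.0021) and the groups were apart. Pex6, an ATPase of the motor, had 20.4, 21.8 and 21.1 CPM with chemerin-9, against 28.7, 24.7 and 26.3 CPM in I/R, again without overlap (log2 fold change −0.33, SE 0.084, edgeR adjusted p = 0.0040). For Pex6 the adjusted p reached 0.061 in 1 of 13 alternatives, the replicate block with a trend on GC content and length removed. Pex11a, which elongates peroxisomes before division, did not pass (log2 fold change 0.18, edgeR adjusted p = 0.20).

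Among the receptors, Ppara was barely detected. It had 8, 7 and 8 counts with chemerin-9, against 1, 3 and 7 counts in I/R, under the filter on low counts, and was not tested. In CPM these are 0.697, 0.516 and 0.560 with chemerin-9 and 0.0783, 0.223 and 0.425 in I/R, which do not overlap but rest on few counts. Ppard, the widely expressed PPARδ, had 40.0, 39.5 and 44.0 CPM with chemerin-9, against 42.6, 44.8 and 48.7 CPM in I/R, with overlap. Its log2 fold change of −0.14 (SE 0.069) did not pass (edgeR adjusted p = 0.0995).

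Motifs were searched on both strands in the 250 bases before the start, in 40 windows of 36 member genes and in all 32851 windows of the RefSeq table. The GC box GGGCGG stood in 67.5% of the member windows and 32.7% of all windows, and CCAAT in 14 of the 40 member windows and 33.8% of all. The NRF1 motif, GCGCA followed by its reverse complement, stood in 2 member windows (5.0%), those of Etfdh and Ppara, and in 0.782% of all. A direct repeat of the PPAR kind, 2 copies of AGGNCA 1 base apart, was in no member window and in 0.338% of all, and TCAAGGTCA, the motif of oestrogen-related receptors, was in none and in 0.387% of all. These are matches of letters and not sites. The full set of windows was not limited to genes tested here, so the shares are no comparison with expressed genes. Decr1 is among the members without a window.

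Other genes of the pathways were called about as often as all genes. They came from lists drawn up from textbook roles, with earlier results of these data known. Of 73 tested, 38 were called (52.1%), 19 higher and 19 lower with chemerin-9. Among other mitochondrial oxidation genes 6 of 16 tested were called (37.5%, beside 51.7% of all tested genes), 2 higher and 4 lower. Acot13, a mitochondrial acyl-CoA thioesterase, fell to 14.6 ± 1.91 CPM with chemerin-9 against 25.004 ± 1.94 CPM in I/R (log2 fold change −0.78, edgeR adjusted p = 2.1e-05). Hsd17b10, a hydroxyacyl-CoA dehydrogenase, Oxct1, which uses ketone bodies, and Acadsb, a branched-chain acyl-CoA dehydrogenase, fell with log2 fold changes of −0.35, −0.17 and −0.29.

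Among other peroxisomal genes 14 of 30 tested were called (46.7%, beside 51.7% of all tested genes), 6 higher and 8 lower. Idh1, an isocitrate dehydrogenase of cytosol and peroxisome that makes NADPH, fell to 31.7 ± 1.31 CPM with chemerin-9 against 60.1 ± 0.988 CPM in I/R (log2 fold change −0.92, edgeR adjusted p = 1.0e-08). Ephx2, the soluble epoxide hydrolase, rose to 32.8 ± 1.01 CPM with chemerin-9 against 17.9 ± 1.27 CPM in I/R (log2 fold change 0.88, edgeR adjusted p = 4.2e-07). Agps, which makes ether lipids and is imported by Pex7, rose (log2 fold change 0.34), and Abcd4, a transporter of the ABCD family that works in lysosomes, fell (−0.71).

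Of 7 other peroxins and division genes tested, 3 were called (42.9%, under the 51.7% of all tested genes), each of them higher. Among them Dnm1l, the dynamin that cuts mitochondria and peroxisomes, rose to 246 ± 5.97 CPM with chemerin-9 against 206 ± 11.5 CPM in I/R (log2 fold change 0.26, edgeR adjusted p = 0.00012). Its adaptor Fis1 rose as well (log2 fold change 0.23, edgeR adjusted p = 0.0078). Of 12 PPAR partners and coregulators tested, 9 were called (75%, beside 51.7% of all tested genes), of which 6 rose and 3 fell. Rxra, the receptor that pairs with PPARs, rose to 55.1 ± 1.023 CPM with chemerin-9 against 41.1 ± 2.27 CPM in I/R (log2 fold change 0.42, edgeR adjusted p = 3.2e-05). The corepressor Nrip1 (0.61) and the Mediator subunit Med1 (0.33) rose and the coactivator Ncoa3 (−0.33) fell on the log2 scale.

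Of 8 tested PPAR target genes that are not members, 6 were called (75%, beside 51.7% of all tested genes), of which 2 rose and 4 fell. Fgf21, a hormone of fasting and cell stress, fell to 15.5 ± 1.05 CPM with chemerin-9 against 53.1 ± 4.16 CPM in I/R (log2 fold change −1.78, edgeR adjusted p = 3.0e-10). Lpin1, a phosphatidate phosphatase and coactivator, fell (−1.06), as did the mitochondrial carrier Ucp2 (−0.50), while Txnip, which binds thioredoxin, rose (0.82). Several of these genes also answer to pathways other than PPARs.

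In the authors' deposited table, 19 of the 41 members tested here (46.3%) had an FDR under 0.05, 9 higher and 10 lower, beside 41.7% of the 14184 genes tested here. The log2 fold changes of the authors' deposited table differed from those of edgeR by at most 0.020 for the members tested.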

How the data were processed

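RNA-seq was made from 6 libraries, 3 from I/R with chemerin-9 and 3 from I/R. A Qiagen reagent for RNA and a Vazyme stranded kit for the libraries were used, per the labels' protocols. The submitters' processing notes name HISAT2, HTSeq, DESeq 1.18.1 and the build mm10, with no annotation release or strand setting. The authors deposited raw counts per gene symbol, with no normalization, and beside them their own log2 fold change, its linear ratio, and an FDR and p-value per gene. Removing 27 repeated rows of 25216 left 25189 symbols.

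Groups follow the titles, since the labels' treatment field gives C9, C10 and C11 for the 3 treated samples. The labels name other columns for the treated samples, so that reading the letters IC as I/R with C9 could not be checked.

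The test was edgeR's quasi-likelihood test (edgeR 4.0.16, R 4.3.3) with group as the only term, after TMM scaling and filterByExpr, and p-values were adjusted by Benjamini-Hochberg over 14184 genes. The biological coefficient of variation was 5.18%. Per-library values were given for members with an adjusted p under 0.05 and an absolute log2 fold change of at least 0.3, for the PPAR receptors and for up to 4 members of each class with the smallest p. Cpt1a, Etfa, Hadhb, Echs1, Pex5 and the ratios were singled out after their values were seen. Up to 4 genes with the smallest p were named in each pathway list, apart from some that are not reported here. The members and lists were chosen with earlier results of these data known. Copies were searched with BLAST 2.17.0 at 95% identity over 50% of the shorter transcript. Genomic positions are those of GRCm38. DESeq2 1.42.0 was an alternative. The procedure was tested on simulated data.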

Additional observations from a re-analysis of the deposited data

How the results depend on the processing

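The number of members called stayed within 1.5 times of the 22 reported in all 13 alternatives, from 19 with DESeq2 or without the first I/R library to 22, and no called member changed sign. Of the 22, 18 were called in every alternative (9 higher and 9 lower with chemerin-9), and Eci1, Cat, Pex10 and Pex6 were lost in at least 1, while Cpt2 and Etfdh were gained in at least 1. Leaving out each library in turn gave 19 to 22 members called, and 6399 to 7323 of all genes. All genes called ran from 6312 with DESeq2 to 7747 without a filter on low counts. Replicate numbers did not pair the libraries (correlations of same-numbered deviations of 0.10, −0.052 and 0.042). With the replicate block, 20 members and 7300 of all genes were called. Class medians, added after the data were seen, moved by more than their spread in 10 of 39 comparisons. Leaving out each library gave mitochondrial medians of −0.075 (without the first I/R library) to 0.0054, peroxisomal medians of 0.065 to 0.11 and peroxin medians of −0.16 to −0.095. With the trend on GC content and length removed they were −0.015, 0.037 and −0.10. Under that setting the log2 fold changes of the called members also shrank in size, apart from Acadl, Eci1, Cat and Pex19, which grew. Pex6 went from −0.33 to −0.20 and Pex7 from 0.57 to 0.43, while Eci1 went from 0.19 to 0.28. The percent changes given above are from the fit without this removal. Ppara, with 1 to 8 counts per library, was too shallow to test.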
